A study of Mus musculus with 32 samples.

Results

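The neurons described here are cells of the mouse median eminence (ME) that carried transcripts of GABA synthesis or GABA packaging genes and lay outside the large Agrp, Sst, Avp and Vipr2 groups. A cell was a member when it held at least 20 unique molecular identifiers (UMIs, each standing for 1 captured transcript) of Snap25, Syt1, Stmn2 and Stmn3 together, at least 1 UMI of Gad1, Gad2 and Slc32a1 together, under 30 UMIs of Agrp, under 20 each of Sst, Avp and Cga, and none of Vipr2. This rule took 241 of 5982 cells, or 4.03% (95% exact interval 3.54 to 4.56), and 55.1% of the 437 neurons. The remaining 196 neurons were 61 Agrp neurons, 48 Sst-rich neurons, 29 neurons with Avp or Vipr2, and 58 neurons without a UMI of the GABA genes. Because the members were chosen on measured UMIs, the values of the genes in the rule are given as a description.

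The study pooled the ME of 5 male C57B/L6 mice fasted overnight for 16 h, and separately that of 5 mice given food back for 1 h following such a fast, all aged 40 to 47 days, and dissociated each pool with papain. Live cells were sorted on DraQ5 and DAPI and split over 2 libraries per condition with droplet-based 10x Genomics 3′ chemistry. All mice had been fasted, and no group fed ad libitum was analysed here. The barcodes carry a suffix of 1 to 4 (the barcode number), but neither the labels nor the methods say which library or feeding state a suffix stands for. The matrix was therefore handled as 1 sample mixing fasted and refed mice, with no comparison between feeding states and no test between mice. Values are given for each barcode number to show how they vary among parts of the matrix, and 21 barcodes occurred under more than 1 number, 1 of them in a member.

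GABA is made from glutamate by the 2 glutamate decarboxylases encoded by Gad1 and Gad2 and is loaded into synaptic vesicles by the transporter encoded by Slc32a1. GABAergic neurons of the arcuate nucleus, which lies beside the ME, often also make neuropeptides, and some of their axons end at the portal vessels of the ME, from where their peptides reach the pituitary. Growth hormone-releasing hormone (Ghrh) is the textbook example of such a peptide, and galanin (Gal), CART (Cartpt) and the tachykinins (Tac1, Tac2) act as modulators next to the fast transmitter.

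The members held a median of 13944 UMIs (range 6271 to 23414) and 4386 genes per cell. Barcode numbers 1 to 4 gave 46, 33, 80 and 82 members, with median depths of 14256.5, 15282, 13037.5 and 14523.5 UMIs. These were 2.80%, 2.21%, 5.89% and 5.51% of the cells under each number. As a share of neurons they were 52.3%, 48.5%, 55.9% and 59.4%. The 4 shares of all cells therefore fell into a lower and a higher pair, while the exact intervals of the 4 shares of neurons overlapped, from 41.4 to 63.0% for number 1 to 50.7 to 67.7% for number 4.

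The members were neurons by markers that the rule did not use. The 7 genes Snhg11, Meg3, Uchl1, Rab3a, Resp18, Celf4 and Tubb3 summed to 14131 CPM (UMIs scaled to an equal total), with every member between 8079 and 29430 CPM, against 764 CPM in mature oligodendrocytes and 329.8 CPM in microglia. Gad1 was found in 89.2% of members, Gad2 in 82.6% and Slc32a1 in 73.9%, and 65.1% had all 3 genes. The sum of the 3 ranged from 1 to 80 UMIs per cell with a median of 12. Mature oligodendrocytes, which should lack these genes, had a UMI of the 3 in 6.08% of 658 cells (median depth 6144.5 UMIs, at most 3 UMIs in a cell), and microglia in 2.29% of 525 cells (median depth 3097 UMIs, at most 1). Markers of other cell types were low in sum but none was at 0. The 8 mature oligodendrocyte markers summed to 760 CPM in members against 89791 CPM in mature oligodendrocytes and 884 CPM in microglia, with a cell range of 81.6 to 2134 CPM. The 6 astrocyte, 6 tanycyte, 6 microglia and 5 oligodendrocyte precursor markers summed to 198, 130, 161 and 289 CPM, with highest cells at 2816, 1297, 649 and 3930 CPM. The 5 ependymocyte, 6 vessel and leptomeninges, 5 pars tuberalis and 4 erythrocyte markers summed to 134, 102, 48.0 and 19 CPM, with highest cells at 1407, 5604, 3597 and 254 CPM. The pars tuberalis list includes the peptide gene Cck, which reached 27 UMIs in a member, while the whole list reached at most 28. Single cells with at least 20 UMIs of another list numbered 18 for mature oligodendrocytes and at most 3 for the others, and their part in the results was not tested.

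Not all members looked GABAergic. Slc17a6, which encodes the vesicular glutamate transporter VGLUT2 and marks glutamatergic neurons, was found in 56 of 241 members (23.2%), and 44 of these 56 held fewer than 5 UMIs of the GABA genes. The 21 members with exactly 1 GABA gene UMI had Slc17a6 in 19 cells at 312 CPM (exact Poisson interval 250 to 384), next to 305 CPM (267 to 348) in the 58 neurons without a GABA gene UMI. In the 30 members with 2 to 4 GABA gene UMIs, Slc17a6 was found in 25 cells at 239 CPM. The level was 38.9 CPM in the 44 members with 5 to 9, 5.52 CPM in the 93 members with 10 to 19, and 2.47 CPM in the 53 members with 20 or more. The median depth of the 5 sets lay between 11743 and 16139 UMIs and did not order them in this way.

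Other genes differed along the same axis. Dlx1, a homeobox gene of forebrain GABAergic neurons, was found in 1 of 21 members with 1 GABA gene UMI, in 3 of 30 with 2 to 4, in 13 of 44 with 5 to 9, in 54 of 93 with 10 to 19 and in 33 of 53 with 20 or more. Isl1, a LIM homeobox gene of arcuate neurons, went from 19% to 81.1% of cells between the lowest and the highest set. Nkx2-1, which marks the ventral hypothalamus, went from 71.4% to 35.8%. Tac2 stood at 2555 CPM (2372 to 2749) with 1 GABA gene UMI and at 17.3 CPM (9.46 to 29.0) with 20 or more. In Slc17a6, Tac2, Dlx1 and Nkx2-1 the members with 1 to 4 GABA gene UMIs lay nearer to the neurons without GABA genes than to the members with at least 10. A limit of 5 GABA gene UMIs left 190 members, of which 12 (6.32%) had a UMI of Slc17a6.

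**Figure D1:**
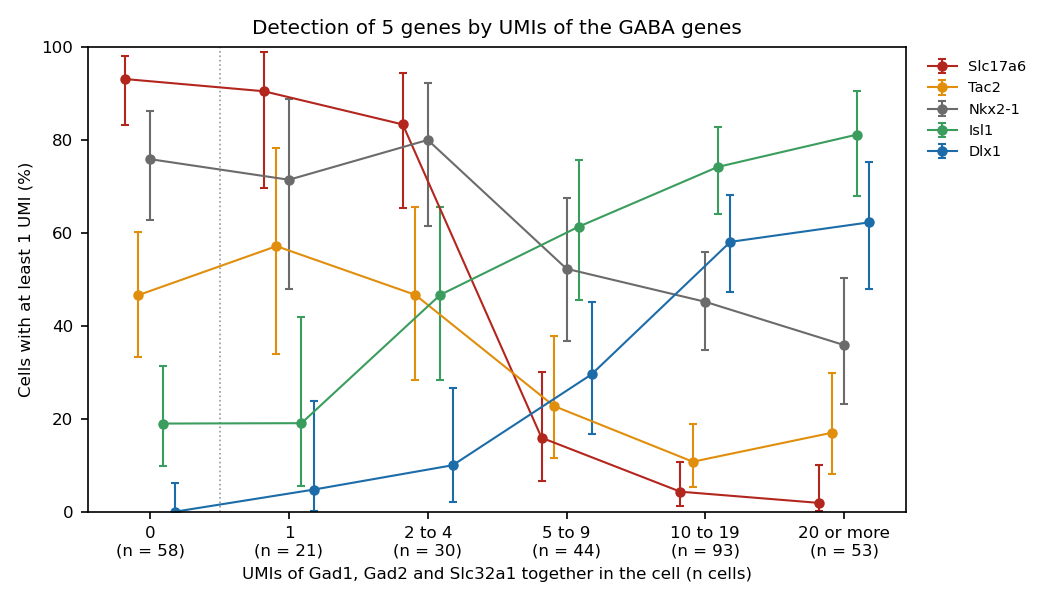
Share of cells with at least 1 UMI of 5 genes (percent, vertical axis, bars are 95% exact Clopper-Pearson intervals) by the UMIs of Gad1, Gad2 and Slc32a1 together in the cell (horizontal axis). The points left of the dotted line are the 58 neurons without GABA gene UMIs, and Slc17a6 went from 90.5% of members with 1 UMI to 1.89% of those with 20 or more.

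High counts of any 1 neuropeptide gene were found in few members. Of 38 peptide genes that the rule did not use, 16 reached 10 UMIs in at least 1 member, and 120 members (49.8%, exact interval 43.3 to 56.3) held at least 1 peptide at 10 UMIs or more, called rich here. The share was 52.2%, 48.5%, 47.5% and 51.2% under barcode numbers 1 to 4. 68 members were rich in 1 peptide, 38 in 2, 11 in 3 and 3 in 4. Only 8 genes marked 9 or more members, namely Cartpt (38 cells), Gal (37), Tac2 (27), Ghrh (21), Tac1 (15), Pomc (11), Trh (9) and Vip (9). For 7 of these 8 genes the rich cells held between 92.1% and 98.8% of all the members' UMIs of that gene, and for Trh they held 72.9%. The rich cells were picked on these same UMIs, so high shares are fixed in part by the limit.

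**Figure D2:**
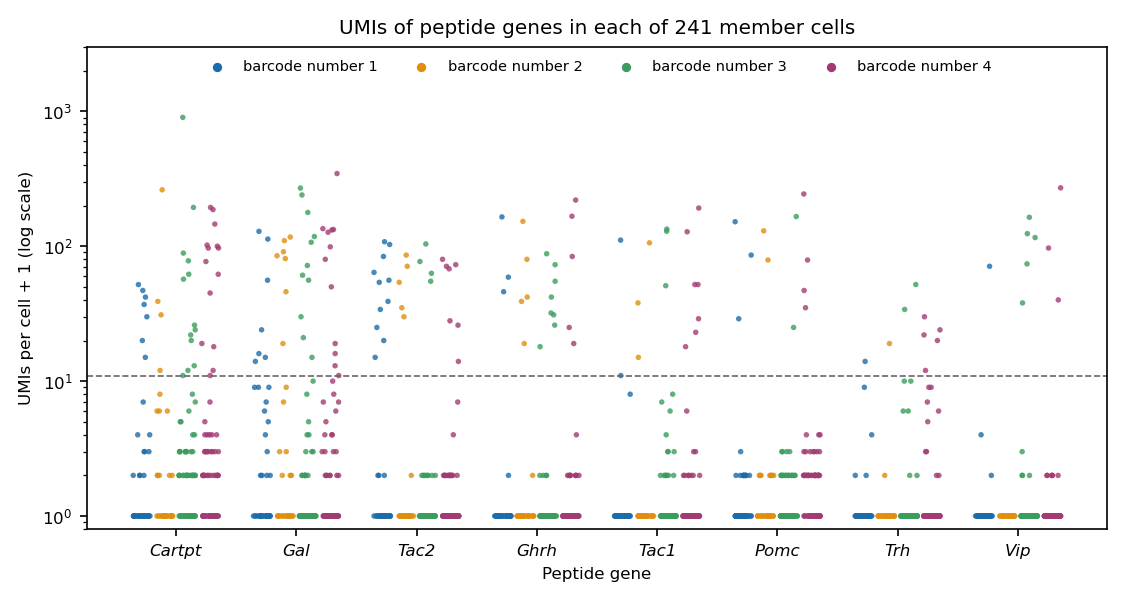
UMIs per cell plus 1 on a log axis (vertical) for 8 peptide genes (horizontal) in each of the 241 members, with 1 point per cell coloured by barcode number and the dashed line at 10 UMIs. Most cells lie at 0 or 1 UMI of a given peptide, and the highest reached 901 UMIs of Cartpt, 345 of Gal, 270 of Vip, 243 of Pomc and 219 of Ghrh.

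Ghrh, the hypothalamic releaser of growth hormone (GRCm38 chromosome 2, 157329497 to 157347506, minus strand), stood at 447 CPM (424 to 470) in the members. It was at 425, 675, 343 and 457 CPM under barcode numbers 1 to 4 and at 3.54, 7.05, 10.8 and 4.07 CPM in Agrp, Sst-rich, Avp or Vipr2, and GABA-free neurons. Ghrh was thus higher in the members than in the other neurons, and its log2 ratio was above 0 under all 4 barcode numbers. A UMI of Ghrh was found in 15.4% of members, 2.89% of mature oligodendrocytes and 1.52% of microglia. At an equal depth of 2000 UMIs these shares were 10.4%, 0.912% and 0.849%. The 21 Ghrh-rich cells held 17 to 219 UMIs (median 45), 3, 5, 8 and 5 of them fell under barcode numbers 1 to 4, and no Agrp, Sst-rich, Avp or Vipr2, or GABA-free neuron was Ghrh-rich.

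All 21 Ghrh-rich cells were also Gal-rich. Gal in them had a median of 106 UMIs and a level of 7152 CPM (6872 to 7441), against 311 CPM in the other 220 members. The overlap was also complete with 5 UMIs (21 cells) or 20 UMIs (18 cells) as the limit, 2 limits chosen after the data had been seen. 11 of the 21 were Cartpt-rich, and none was rich in Tac2, Tac1, Pomc, Trh or Vip, where 0 of 21 allows a share of up to 14.3%. Their GABA gene sum ranged from 1 to 30 UMIs with a median of 15, Slc32a1 was found in 95.2% and Slc17a6 in 4.76% of them.

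Further genes set the Ghrh-rich cells apart from the other members. Slc18a3, the vesicular acetylcholine transporter, was found in 16 of 21 Ghrh-rich cells and in 3 of 220 others, at 119 CPM (85.7 to 162) against 1.35 CPM. Th, which encodes tyrosine hydroxylase of dopamine synthesis, was found in 20 of 21 and in 28 of 220, at 210 CPM (164 to 264) against 29.3 CPM. Other dopamine genes did not follow Th to this extent. Ddc, the next enzyme of dopamine synthesis, was found in 10 of 21 and in 90 of 220. Slc18a2, the vesicular monoamine transporter, was found in 6 of 21 and in 22 of 220. The log2 ratios of Ghrh-rich over other members were 0.36 for Ddc and 0.09 for Slc18a2, against 2.48 for Th. The homeobox gene Gsx1 was found in 18 of 21 against 26 of 220, the forkhead gene Foxp2 in 15 against 22, and Prox1 in 19 against 36. Penk, the enkephalin precursor, was present in 14 of 21 at 248 CPM against 38.1 CPM, and the growth hormone receptor gene Ghr in 16 of 21 at 99.1 CPM against 15.5 CPM. The Ghrh-rich cells thus shared peptide, transmitter and transcription factor genes. Their median depth of 16494 UMIs was above that of all members, and with every cell thinned to 2000 UMIs the shares with Th were 38.1% and 4.09%, and with Foxp2 38.1% and 2.27%.

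Gal encodes a peptide that inhibits many neurons (GRCm38 chromosome 19, 3409915 to 3414544, minus strand). It stood at 1020 CPM (986 to 1055) in the members, with 647, 1155, 1137 and 1059 CPM under barcode numbers 1 to 4. The level was 274 CPM in GABA-free neurons, 38.1 CPM in Agrp neurons, 42.3 CPM in Sst-rich neurons and 14.4 CPM in Avp or Vipr2 neurons. A UMI was found in 38.2% of members (32.0 to 44.6) and in 33.2% of the other neurons, with 41.4% in GABA-free, 37.7% in Agrp and 33.3% in Sst-rich neurons. At 2000 UMIs per cell the shares were 20.7% in members, 6.63% in other neurons, 1.82% in mature oligodendrocytes and 2.12% in microglia. The 37 Gal-rich cells held 10 to 345 UMIs (median 79), and they divided into the 21 Ghrh-rich cells and 16 others. Among the 16, 6 were Tac2-rich and 4 Tac1-rich, 8 had Slc17a6, and Slc32a1 was found in 56.3%. Gal therefore occurred in members with and without the features of GABAergic neurons.

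Tac2, the precursor of neurokinin B (GRCm38 chromosome 10, 127724478 to 127731768, plus strand), stood at 466 CPM (443 to 490) in the members and at 1661 CPM in GABA-free neurons. Under barcode numbers 1 to 4 it was 942, 558, 288 and 329 CPM, and the share of Tac2-rich members was 23.9%, 15.2%, 5.00% and 8.54%. A UMI was found in 22.8% of members and 20.9% of the other neurons, and at 2000 UMIs per cell in 13.3% and 14.3%, against 1.52% of mature oligodendrocytes and 1.27% of microglia. The 27 Tac2-rich members held 13 to 107 UMIs (median 55). Their GABA gene sum had a median of 2 UMIs, 12 of them had exactly 1, and 24 of 27 had fewer than 5. Slc17a6 was found in 26 of the 27, at 300.2 CPM (248 to 361) against 36.8 CPM in the other 214 members. A further 22 Tac2-rich cells were among the 58 GABA-free neurons.

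Several receptor and peptide genes, picked from the lists after their values were seen, differed between the Tac2-rich and the other members. The prolactin receptor gene Prlr was found in 27 of 27 against 60 of 214 others, and the oestrogen receptor gene Esr1 in 25 against 46. The progesterone receptor gene Pgr was found in 9 of 27 against 63 of 214, at 29.0 CPM (14.5 to 51.8) against 33.4 CPM. Pdyn, the dynorphin precursor, was found in 24 of 27 at 290 CPM (238 to 349) against 34.1 CPM. Tacr3, the receptor for neurokinin B, was found in 9 of 27 against 2 of 214, and the nuclear receptor gene Nr4a2 in 17 against 8. The relaxin receptor gene Rxfp1 was found in 12 of 27 against 3 of 214. Cartpt was nearly lacking, with 5.27 CPM against 1159 CPM.

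Cartpt, the precursor of CART (GRCm38 chromosome 13, 99898489 to 99901091, minus strand), had a UMI in 51.0% (44.5 to 57.5) of the members and in 49.5% of the other neurons, with 73.8% in Agrp and 58.3% in Sst-rich neurons. At 2000 UMIs per cell the shares were 20.3% in members, 21.4% in other neurons, 2.28% in mature oligodendrocytes and 3.40% in microglia, so a UMI of Cartpt did not set the members apart from other neurons. Its level was 1027 CPM in members, and 409, 753, 1488 and 1060 CPM under barcode numbers 1 to 4. The single highest cell, with 901 UMIs, lay under number 3. Cartpt-rich cells were present in every neuron group, with 17 in Agrp neurons, 7 in Sst-rich neurons, 1 in Avp or Vipr2 neurons and 1 in GABA-free neurons next to 38 in members. 14 of the 38 were Gal-rich, 11 of these were the Ghrh-rich ones named above, 5 were Pomc-rich, 3 Tac1-rich and 3 Trh-rich, and none was rich in Tac2 or Vip, which allows a share of up to 7.89%. Isl1 was found in 94.7% of the Cartpt-rich cells.

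Pomc encodes the precursor of the melanocortin peptides that lower food intake. The 11 Pomc-rich members held 24 to 243 UMIs (median 78), while a UMI of Pomc was found in 34.9% of all members and 34.7% of the other neurons, with 54.1% in Agrp neurons. At 2000 UMIs per cell these shares were 11.2% in members, 4.08% in other neurons, 1.98% in mature oligodendrocytes and 2.97% in microglia. These 11 cells had a GABA gene median of 4 UMIs, with Gad1 in 72.7% and Gad2 in 81.8%. Slc32a1 was found in 0 of 11, which allows a share of up to 27.3%, and Slc17a6 in 8 of 11. Cartpt was found in 90.9% and Pdyn in 9 of 11 at 225 CPM (162 to 306) against 54.0 CPM in the other 230 members. Npy1r, a receptor for neuropeptide Y, was found in 8 of 11 against 74 of 230.

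Tac1, the substance P precursor, was rich in 15 members with 10 to 191 UMIs (median 51). Of the 8 sets these cells had the highest median GABA gene sum, 27 UMIs, and the highest median depth, 18026 UMIs. The thyroid hormone receptor gene Thrb was found in 13 of 15 against 60 of 226 other members, and the nociceptin precursor gene Pnoc in 11 against 88. Th, Gsx1 and Otp were found in 0 of 15, where a count of 0 allows up to 3 cells. 4 of the 15 were Gal-rich and 3 were Cartpt-rich.

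The 9 Vip-rich members were the shallowest of the 8 sets, with a median depth of 8223 UMIs, and held 37 to 270 UMIs of Vip (median 96). 1, 0, 5 and 3 of them fell under barcode numbers 1 to 4. The LIM homeobox gene Lhx1 was found in 8 of 9 at 666 CPM (494 to 878) against 24 of 232 others at 14.5 CPM. The homeobox genes Six3 and Six6 were found in 9 of 9, against 107 and 74 of 232. Outside the members, they were found in 82.8% and 86.2% of Avp or Vipr2 neurons. The shares were 83.3% and 79.2% in Sst-rich, 70.5% and 75.4% in Agrp, and 13.8% and 15.5% in GABA-free neurons. Grp, the gastrin-releasing peptide gene, was found in 4 of 9 at 586 CPM (426 to 787) against 8.03 CPM. Isl1 was found in 11.1%, and Nkx2-1 in 0 of 9, which allows a share of up to 33.3%. Another 3 Vip-rich cells lay among the 29 Avp or Vipr2 neurons, whose median depth was 7945 UMIs.

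The 9 Trh-rich members held 11 to 51 UMIs (median 21) of the gene for thyrotropin-releasing hormone, and their GABA gene sum was 8 to 29 UMIs. Dlx1 was found in 88.9% of them and Th in 4 of 9. 3 of the 9 were Cartpt-rich, and none was rich in Gal, Tac2, Ghrh, Tac1, Pomc or Vip.

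**Figure D3:**
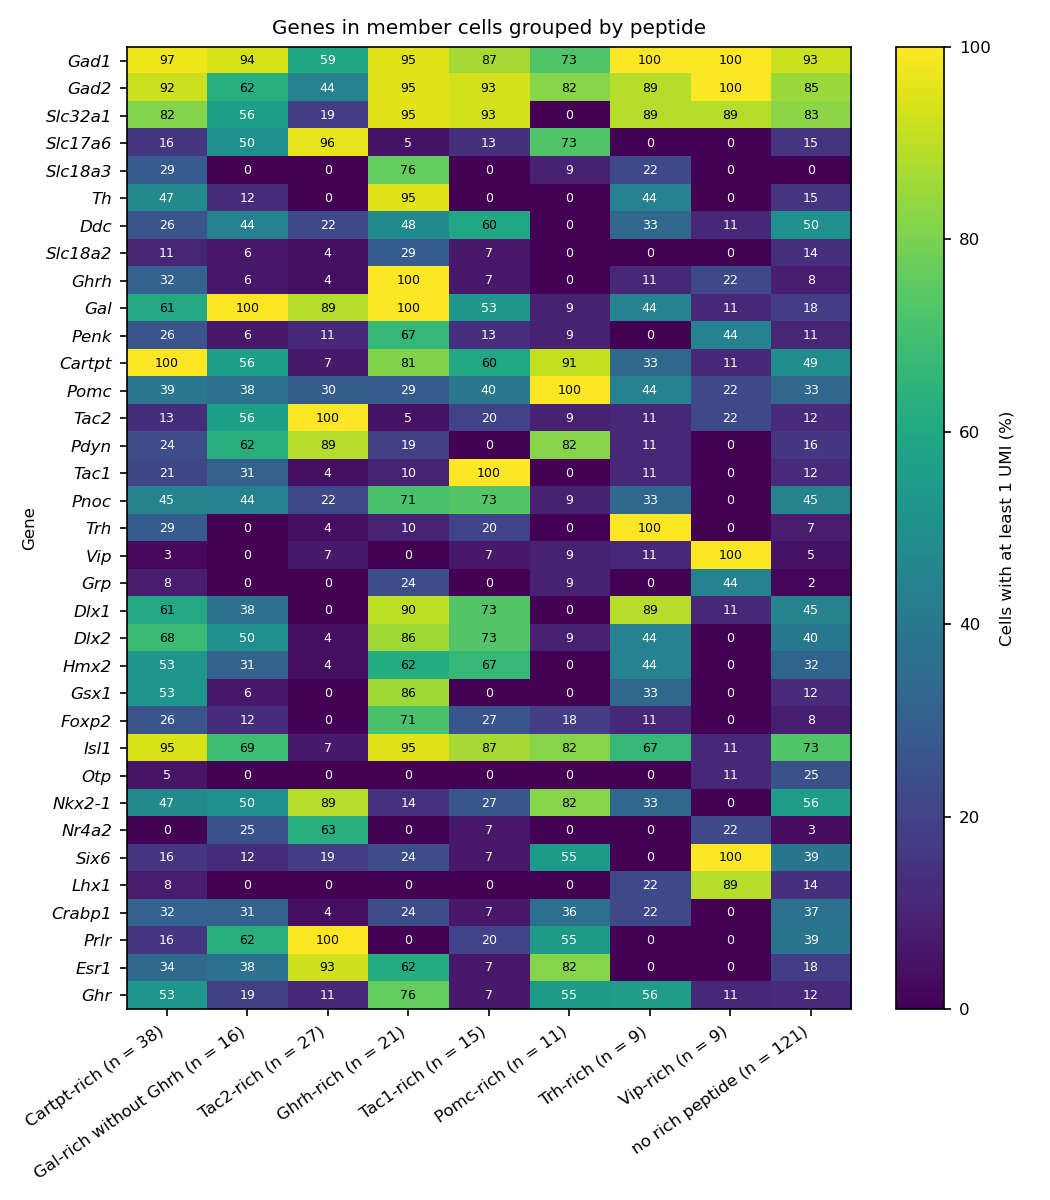
Share of cells (percent, colour and number) with at least 1 UMI of each gene (rows) in members grouped by the peptide at 10 or more UMIs (columns, n cells), where a cell can stand in more than 1 column. The Ghrh-rich column holds Th in 95% and Slc18a3 in 76% of cells, the Tac2-rich column Slc17a6 in 96%, and the Vip-rich column Lhx1 in 89%.

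The other 121 members had none of the 38 peptides outside the rule at 10 UMIs or more. Their median depth was 13254 UMIs against 14546.5 UMIs in the peptide-rich members. Agrp, Sst and Avp, which the rule used, were not counted, and reached at most 3, 15 and 17 UMIs in a member. Otp, a homeobox gene of Agrp and Sst neurons, was found in 30 of the 121 against 4 of 120 peptide-rich members, at 101 CPM (85.7 to 117) against 2.35 CPM. Slc18a2, the vesicular monoamine transporter, was found in 17 of 121 against 11 of 120, and the dopamine transporter gene Slc6a3 in 7 against 1.

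Crabp1, which encodes a retinoic acid binding protein, was high in many of these cells. It stood at 731 CPM in members without a rich peptide against 120 CPM in the peptide-rich members. 35 members held 10 or more UMIs of Crabp1 (11 to 82, median 37), a limit applied to this gene after its values had been seen. Barcode numbers 1 to 4 gave 10, 4, 11 and 10 of these cells. 31 of the 35 had no rich peptide, 33 of the 35 had a UMI of Dlx1, Dlx2, Dlx5 or Dlx6, and 31 had a UMI of Hmx2, Hmx3 or Gsx1. Only 2 of the 196 other neurons reached 10 UMIs of Crabp1.

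Against all other neurons together, the members were higher by at least 1 log2 unit in 32 of 9446 genes (0.339%) and lower in 28 (0.296%). The log2 ratio was taken from summed CPM with a pseudocount of 10 CPM, over genes with at least 50 UMIs, and understates the difference of low genes. The other side was made of groups set apart by Agrp, Sst, Avp, Vipr2 or the lack of GABA genes, so genes that go with these are fixed in part by the rule. With the rule's genes left out, the 12 highest ratios of the same sign under all 4 barcode numbers were those of Ghrh, Crabp1, Gal, Pomc, Dlx1, Tac1, Hmx2, Dlx2, Dlx5, Tcf7l2, Gsx1 and Cartpt. They ran from 4.90 (SD 0.80 over the 4 barcode numbers) for Ghrh to 1.66 (SD 0.67) for Cartpt. The 8 lowest were those of Npy, Otp, Gm8773, Acvr1c, Serpina3n, Arpp21, Cck and Alkal2, from -6.12 (SD 0.75) for Npy to -1.54 (SD 0.47) for Alkal2.

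**Figure D4:**
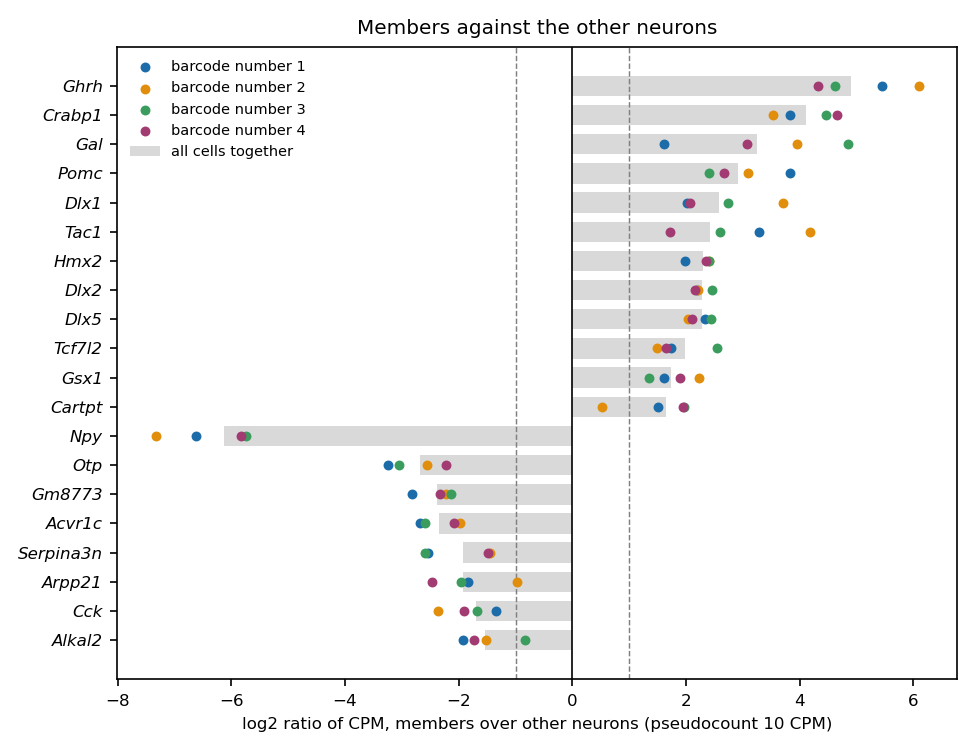
Log2 ratio of CPM in the members over the other 196 neurons (horizontal axis) for the 12 highest and 8 lowest genes (rows), with bars for all cells together and points for each barcode number. The ratio of Hmx2 lay between 1.99 and 2.41 under the 4 numbers, while that of Gal ranged from 1.61 to 4.85.

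The low genes were mostly those of the Agrp, Sst or Avp neurons. Npy, the orexigenic peptide of Agrp neurons, was at 19275 CPM in Agrp neurons and at 101 CPM in members, near 68.7 CPM in mature oligodendrocytes and 75.1 CPM in microglia. A UMI of Npy was found in 73.4% of members but never more than 7 in a cell. At 2000 UMIs per cell the share with Npy was 15.4% in members, 14% in mature oligodendrocytes and 13.0% in microglia, so the members' Npy lay at the background of the matrix. Agrp was the same, with 6.64%, 5.47% and 6.79%. Acvr1c and Serpina3n were at 215 and 221 CPM in Agrp neurons against 9.36 and 16.6 CPM in members. Arpp21 was at 329 CPM in Sst-rich neurons against 20.8 CPM, and Cck at 768 CPM in Avp or Vipr2 neurons against 26.6 CPM.

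Transcription factors differed between the members and the other neurons in both directions. Of 40 listed genes, 24 passed the minimum of 50 UMIs, and of these 10 were at least 1 log2 unit higher in members (Dlx1, Dlx2, Dlx5, Dlx6, Lhx1, Foxp2, Gsx1, Hmx2, Hmx3 and Pbx3) and 2 lower (Otp and Fezf1). The median ratio of the 24 was 0.32, beside 0.04 over all genes, of which 0.339% were higher and 0.296% lower. At least 1 of the 4 Dlx genes, which act in forebrain GABAergic neurons, was found in 161 members (66.8%, exact interval 60.5 to 72.7). The shares were 60.9%, 66.7%, 68.8% and 68.3% under barcode numbers 1 to 4. They were 3.28% in Agrp neurons, 6.25% in Sst-rich neurons, 62.1% in Avp or Vipr2 neurons, 1.72% in GABA-free neurons and 1.22% in mature oligodendrocytes. The Dlx genes were thus frequent in members and in Avp or Vipr2 neurons.

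Otp was found in 34 members (14.1%), in 100% of Agrp neurons, 93.8% of Sst-rich neurons, 13.8% of Avp or Vipr2 neurons and 1.72% of GABA-free neurons. It was lower in members than in the other neurons together and higher than in the GABA-free neurons. 140 members had a Dlx gene and no Otp, 13 had Otp and no Dlx gene, 21 had both and 67 neither. The homeobox genes Hmx2, Hmx3 and Gsx1 were found, at least 1 of them, in 105 members (43.6%), of which 94 also had a Dlx gene and 93 Isl1. The share was 1.64% in Agrp neurons, 10.3% in Avp or Vipr2 neurons and 5.17% in GABA-free neurons, and none of the 48 Sst-rich neurons had one, which allows up to 6.25%. Nkx2-1 was found in 71.7%, 60.6%, 48.8% and 37.8% of members under barcode numbers 1 to 4, which was a wider range than that of Isl1 at 63.0%, 69.7%, 63.8% and 65.9%.

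**Figure D5:**
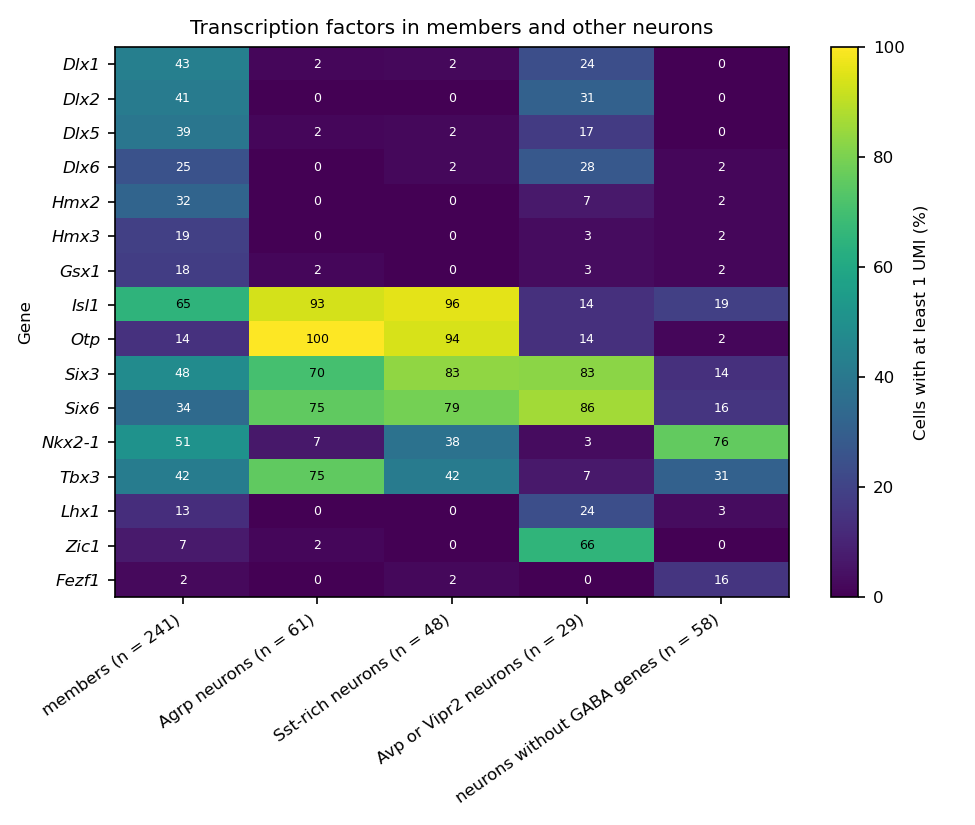
Share of cells (percent, colour and number) with at least 1 UMI of 16 transcription factor genes (rows) in the members and the 4 other groups of neurons (columns, n cells). Dlx1 was found in 43% of members, in 24.1% of Avp or Vipr2 neurons and in 2.08% or less of Agrp, Sst-rich and GABA-free neurons. Otp was found in 14% of members.

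Among peptide genes, 20 of 38 outside the rule passed the minimum, and 9 were higher in members than in the other neurons (Gal, Ghrh, Tac1, Penk, Trh, Pomc, Cartpt, Vip and Grp) and 2 lower (Npy and Cck), with a median ratio of 0.56. Over all genes, 0.339% were higher and 0.296% lower. Vip-rich cells were not particular to the members, with 9 among 241 members and 3 among 29 Avp or Vipr2 neurons. Tac2 had a ratio of 0.10, which turned to -0.20 with the mean of per-cell CPM and to -0.11 without barcode number 1. In the 190 members with at least 5 GABA gene UMIs it was -2.23. Against the GABA-free neurons alone, where 0.775% of 8253 genes were higher and 0.545% lower, 7 of 17 peptide genes were higher and 4 lower. The 4 were Tac2, Pdyn, Cck and Adcyap1, with -1.81 for Tac2. Against the Sst-rich neurons, where 1.34% of 8277 genes were higher and 1.34% lower, 10 of 16 peptide genes were higher and 1, Npy, was lower.

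Dopamine and other amine genes were low but present. Of 16 genes, 9 passed the minimum, and Th (ratio 1.25), Ddc (1.11) and Slc18a2 (1.38) were higher in members than in the other neurons, and none was lower. Over all genes, 0.339% were higher and 0.296% lower. Against the GABA-free neurons, the same 3 of 6 tested were higher, beside 0.775% of all genes. Against the Sst-rich neurons, 2 of 6 were higher, Ddc and Slc18a2 but not Th, beside 1.34% of all genes. Th was found in 48 members (19.9%, exact interval 15.1 to 25.5) at 48.0 CPM, with 20.6, 53.3, 58.9 and 50.8 CPM under barcode numbers 1 to 4, against 1.22% of mature oligodendrocytes. 23 of the 48 held at least 3 UMIs and 1 member held at least 10. 20 of the 48 Th-positive members were Ghrh-rich. Ddc, the next enzyme of dopamine synthesis, was found in 19 of the 48, Slc18a2 in 16 and Slc6a3 in 6, and 5 cells had Th together with all 3. In the 193 members without Th, Ddc was found in 81, Slc18a2 in 12 and Slc6a3 in 2. Ddc was found in 41.5% of members, 26.5% of other neurons, 45.4% of mature oligodendrocytes and 0.571% of microglia. It was found in 0 of the 11 Pomc-rich members, where a count of 0 allows up to 3 cells.

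Most receptor, processing and transmission genes lay within 1 log2 unit of all other neurons, as did most of all genes tested. Of 21 hormone and peptide receptor genes tested, none was higher by 1 log2 unit than in the other neurons, beside 0.339% of all genes. Lower were 2, beside 0.296% of all genes, namely Ghr (-1.50) and Npy2r (-1.38). Both are genes of Agrp neurons here, with Ghr at 200.2 CPM in Agrp neurons and at 24.1 CPM in members. Against the GABA-free neurons, none of 19 was higher, beside 0.775% of all genes. Lower were 3, among them Prlr (-1.02) and Rxfp1 (-1.55), beside 0.545% of all genes. Against the Sst-rich neurons, 4 of 19 receptor genes were higher (Prlr, Pgr, Npy1r and Npy5r) and 3 were lower (Sstr1, Sstr2 and Thrb). Over all genes in that comparison, 1.34% were higher and 1.34% lower. Of 12 peptide processing genes, 2 were lower in members than in other neurons, beside 0.296% of all genes. They were Pcsk2 (-1.06), which encodes a prohormone convertase, and Vgf (-1.45), a granin-like precursor. The other 10 lay within 1 log2 unit, and none was higher, beside 0.339% of all genes. All 20 GABA transmission genes outside the rule, 12 of 12 glutamate transmission genes and 20 of 20 vesicle release genes lay within 1 log2 unit against the other neurons, with medians of 0.13, -0.00 and -0.01. No gene of these lists passed the limit in either direction. With 0.339% of all genes higher and 0.296% lower, this count does not set the lists apart. Against the Sst-rich neurons, 4 of 20 vesicle release genes were lower, among them Sv2b, Cplx1 and Cplx2, beside 1.34% of all genes. Slc17a6 was at -0.26 against all other neurons, at -2.03 against the GABA-free neurons and at 2.06 against the Sst-rich neurons.

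Immediate early genes, which rise with neuronal activity and with cell stress, were given by barcode number. None of 9 tested lay past 1 log2 unit against the other neurons, with a median ratio of -0.29. Over all genes, 0.339% were higher and 0.296% lower, so this count does not set the list apart. Fos stood at 9.52, 6.15, 53.2 and 50.8 CPM in members under numbers 1 to 4, and Jun at 34.9, 67.7, 126 and 148 CPM. Both genes were thus lower under numbers 1 and 2, the same numbers that held the smaller shares of members among all cells. The mature oligodendrocyte markers in members summed to 520 and 386 CPM under numbers 1 and 2 and to 819 and 998 CPM under numbers 3 and 4. What sets the numbers apart cannot be told from the labels, and its part in these values was not tested.

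Just at the limits of the rule, the member with the most Agrp held 3 UMIs and the nearest cell outside 69, and the member with the most Sst held 15 and the nearest outside 33. For Avp the values were 17 and 31. The limit on Vipr2 had no such gap, with members at 0 UMIs and the nearest cell outside at 1. This limit alone left out 17 cells. The limit on neuron genes cut a continuous range, with members at 20 UMIs and 295 cells outside at 19 or fewer, and so did that on GABA genes, with 21 members at 1 UMI and 58 cells at 0.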

How the data were processed

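Per the labels and methods, single-cell libraries of the ME were mapped to mm10 (GRCm38) and counted with Cell Ranger 2.0, and the authors deposited UMI counts per gene and cell without normalization, in 1 matrix of 5982 cells and 27998 genes (29288898 UMIs). The 32 sample records are parts of 4 libraries and are not tied to cells. Columns of per-sample values left unused numbered 0. Symbols for 27645 genes and coordinates came from GENCODE vM21 (GRCm38). No cell was removed.

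The members, gene lists and limits were chosen with earlier results of these data known. Groups were compared by CPM of summed UMIs. Mature oligodendrocytes and microglia, used as background, were cells under the neuron limit with at least 20 UMIs of Mal, Mog, Opalin and Ermn, or of C1qa, C1qb, C1qc and Csf1r. Shares carry 95% Clopper-Pearson and CPM exact Poisson intervals, which hold no more than counting error and treat the UMIs of 1 cell as independent, and a count of 0 is read as up to 3 counts. UMIs of 3′ chemistry were not divided by transcript length, so levels of different genes are not ranked. Cells were thinned to 2000 UMIs without replacement, which left out 54 microglia and no neuron. Named genes were the listed markers, the highest genes of each list, and the 12 highest and 8 lowest ratios of equal sign under all barcode numbers; genes that set peptide-rich cells apart were picked from the lists after their values were seen. Doublets were called with Scrublet in scanpy 1.11.5 in each barcode number (50 cells, 3 of them members, kept). The script that computes the ratios was checked beforehand on simulated counts. Some genes of the lists are not reported here.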

Additional observations from a re-analysis of the deposited data

How the results depend on the processing

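All values rest on 1 sample, so they carry counting error and the spread over barcode numbers only. As a share of all cells, members were 3.18% with at least 5 GABA gene UMIs, 2.98% with Slc32a1 alone, 2.61% with a neuron sum of at least 40 UMIs, and 3.48 to 4.63% with 1 barcode number left out, while the other 4 alternatives stayed within the exact interval. Shares of members with a peptide depended on the limit. Thinned to 2000 UMIs they were 20.7% (Gal), 10.4% (Ghrh), 13.3% (Tac2) and 7.05% (Th). At 3 or more UMIs they were 24.9%, 9.13%, 12% and 9.54%, and at 10 or more 15.4%, 8.71%, 11.2% and 0.415%. Slc17a6 was found in 16.8% of members with at least 2 and 6.32% with at least 5 GABA gene UMIs, 2 limits added after the data had been seen. Against the other neurons, 77 genes were higher and 72 lower with a pseudocount of 1 CPM, 8 and 12 with 50 CPM, and 13 and 14 with thinned cells, where fewer genes (3151) passed the minimum. 17 were higher with a gene minimum of 200 UMIs, and 44 were lower with members of at least 5 GABA gene UMIs, an alternative added later. Of 235 alternative ratios of 21 named genes, 231 kept their sign, 32 of these moved by more than the SD over barcode numbers, and 6 fell below 1 log2 unit, all with a pseudocount of 50 CPM (Hmx2, Dlx5, Tcf7l2, Gsx1, Gm8773 and Alkal2). The 4 others were all Tac2, at -0.20 (mean of per-cell CPM), -0.17 (thinned), -0.11 (without barcode number 1, in a range of -0.11 to 0.26 with 1 number left out) and -2.23 (at least 5 GABA gene UMIs). The cause was not tested. No paired analysis was possible because cells are not tied to libraries and groups of mice were not tested.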
